A study of Mus musculus with 8 samples.

Results

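This report describes 8 of 9 genes of the mitogen-activated protein (MAP) kinase cascades: Mapk14, Mapk11, Mapk8, Mapk9, Map2k3, Map2k6, Mapkapk2 and Dusp1. They are 8 of the 16593 genes that the platform annotation names; 13 of the array's 25697 probes carry their symbols, and each probe was taken on its own. For the remaining gene, Mapk3, which encodes the kinase ERK1, no probe was named, and it was not analysed here. The genes were chosen with their difference between the groups already known, Mapk14 being among the largest rises on the arrays, so that the values of the members are a description and carry no test. Osteoblasts, which make bone, had been taken as primary cells from the calvaria (skull vault) of C57Bl/6 mice and cultured for 7 days with beta-glycerol phosphate (10 mM) and ascorbic acid (50 ug/ml). Of the 8 arrays, 4 were of cells labelled Lrp5-/- (knockout) and 4 of cells labelled Lrp5+/+ (control), and adenovirus carrying either Cre recombinase or green fluorescent protein had been added 48 hours before differentiation. Which virus went to which genotype is not in the labels, and neither is whether replicate arrays stem from different mice or dishes, so errors and p-values measure only how these arrays vary, and that variation may be technical.

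MAP kinases are the last tier of a relay in which a MAP kinase kinase kinase (MAP3K) phosphorylates a MAP kinase kinase (MAP2K), which phosphorylates the MAP kinase on a threonine and a tyrosine of its activation loop. The p38 kinases, encoded by Mapk14 (p38 alpha) and its relatives, and the JNK kinases respond mainly to stress and cytokines, and the ERK kinases mainly to growth factors. In osteoblasts p38 alpha is known to phosphorylate transcription factors of bone formation such as Runx2 and Dlx5. The relay works largely through phosphorylation, which an expression array does not measure.

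Between 9685 and 10363 probes were detected on each array, the median intensity ran from 126 to 155, and detection here means a detection p under 0.01 against background. The single Lrp5 probe stood near background, at 5.63, 5.66, 6.07 and 6.10 log2 on the knockout arrays (detected on 2) and at 5.43, 5.70, 5.48 and 5.53 on the control arrays (detected on 1). Where this probe lies within Lrp5 is unknown, so it is no check of the genotypes, and directions rest on the labels alone. Of 12 osteoblast markers, 10 had a named probe and 6 passed the detection filter, among them Sp7, Col1a1 and Sparc. The late markers Bglap, Dmp1 and Phex were detected on no array. Levels are normalized log2 intensities, each probe is compared only with itself across arrays, and a difference is the knockout mean minus the control mean in log2.

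The RefSeq promoter windows of Mapk14 and Map2k3, the kinase and the activator of it that differed most clearly between the groups and in opposite directions, are shown as the sequence around their annotated starts. Each runs from 250 bases before an annotated start to 50 after it, in build GRCm38.p6. RefSeq lists 2 starts for Mapk14, at chr17:28691092-28691391 and chr17:28692318-28692617 on the plus strand, and 1 for Map2k3, at chr11:60931804-60932103 on the plus strand. Capitals mark matches, on either strand, to the GC box with the letters GGGCGG, the CCAAT box with the letters of its name, the AP-1 site written TGANTCA, the cyclic AMP response element (CRE) written TGACGTCA, or the TCF/LEF site written CTTTGNT.
Mapk14 upstream start: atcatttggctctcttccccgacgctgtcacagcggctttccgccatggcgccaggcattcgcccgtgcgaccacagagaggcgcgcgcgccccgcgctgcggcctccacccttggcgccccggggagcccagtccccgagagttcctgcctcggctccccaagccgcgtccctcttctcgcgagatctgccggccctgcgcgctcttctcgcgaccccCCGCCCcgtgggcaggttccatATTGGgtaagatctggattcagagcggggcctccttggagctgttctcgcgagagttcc
Mapk14 downstream start: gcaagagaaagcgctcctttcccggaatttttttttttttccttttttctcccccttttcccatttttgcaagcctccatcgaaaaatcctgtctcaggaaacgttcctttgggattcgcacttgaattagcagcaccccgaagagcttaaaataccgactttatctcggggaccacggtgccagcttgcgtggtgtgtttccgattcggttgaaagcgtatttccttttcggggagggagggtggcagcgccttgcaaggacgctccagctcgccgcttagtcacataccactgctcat
Map2k3: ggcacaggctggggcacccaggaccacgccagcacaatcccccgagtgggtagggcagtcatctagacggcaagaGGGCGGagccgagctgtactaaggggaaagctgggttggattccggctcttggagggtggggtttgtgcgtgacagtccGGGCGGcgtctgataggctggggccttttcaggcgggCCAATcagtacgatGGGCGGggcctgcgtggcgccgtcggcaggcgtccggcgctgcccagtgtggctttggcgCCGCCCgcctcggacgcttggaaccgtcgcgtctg
The upstream Mapk14 window held 1 GC box and 1 CCAAT, the downstream window held none of the 5 motifs, and the Map2k3 window held 4 GC boxes and 1 CCAAT. The GC box letters occurred in 35.7% of all 32851 RefSeq promoter windows, CCAAT in 37.4%, CTTTGNT in 18.6%, TGANTCA in 7.81% and TGACGTCA in 1.79%. Neither gene had an AP-1, CRE or TCF/LEF match in these windows. The searched motifs did not share letters in these 3 windows, a match is only a match of letters, and which start the array probe reports is not known here.

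Mapk14, which encodes p38 alpha, was higher in the knockout cells. Its single probe (ILMN_2721809) read 9.41, 9.52, 9.51 and 9.43 log2 on the 4 knockout arrays, against 8.61, 8.78, 8.47 and 8.55 on the 4 control arrays. Every knockout array lay above every control array, and the lowest knockout value was well above the highest control value. Before normalization the same probe read 679, 821, 761 and 887 intensity units on the knockout arrays and 490, 620, 452 and 516 on the control arrays, which do not overlap either. The means were 9.47 ± 0.05 in knockout and 8.60 ± 0.13 in control cells (SD, n = 4 each), a difference of 0.86 (SE 0.08), or 1.82-fold. By this difference Mapk14 ranked 9 among the 10004 probes that passed the detection filter. With 1 array left out, the difference stayed between 0.82 and 0.93. With no background correction it was 0.71 and in the authors' deposited log2 values 0.69.

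Mapk11 encodes p38 beta, the closest relative of p38 alpha. Its brighter probe (ILMN_2716622) read 6.76, 6.81, 7.00 and 7.01 on knockout arrays and 6.98, 6.84, 6.91 and 7.05 on control arrays. The groups overlapped, and the difference was -0.05 (SE 0.08). A further Mapk11 probe (ILMN_2614777) was detected on no array. Of the other p38 genes, Mapk13 (p38 delta) read 8.08, 8.04, 8.05 and 8.12 in knockout and 8.19, 8.19, 8.05 and 8.42 in control cells. It was no member, and its difference of -0.14 (SE 0.08) did not pass the test across all probes (limma adjusted p = 0.324). Another detected Mapk13 probe did not pass either (-0.19, limma adjusted p = 0.248). Mapk12, the remaining p38 gene, was detected on 2 knockout and 3 control arrays and differed by -0.03 (SE 0.16, limma adjusted p = 0.94).

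The JNK genes gave 1 probe of Mapk8 and 3 of Mapk9. Mapk8, which encodes JNK1, read 7.17, 7.38, 7.42 and 7.61 in knockout and 7.25, 7.31, 7.26 and 7.45 in control cells, and the groups overlapped (difference 0.08, SE 0.09). Mapk9, which encodes JNK2, had 2 bright probes designed on the transcript NM_207692 and a dim one designed on NM_016961, and these did not read alike. The brightest (ILMN_2591066) read 9.94, 9.95, 9.86 and 9.80 in knockout and 9.90, 9.93, 9.91 and 9.94 in control cells, a difference of -0.03 (SE 0.06). The other probe of that transcript (ILMN_2716527) differed by 0.03 (SE 0.09), a value that turned negative without knockout array 4 (-0.05) and without control array 1 (-0.00). Its highest reading was 8.19 on knockout array 4, whose group otherwise lay between 7.85 and 7.89.

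The dim Mapk9 probe (ILMN_1218582) read 5.83, 6.03, 5.68 and 6.09 in knockout and 6.31, 6.24, 6.19 and 6.34 in control cells. All knockout values were below all control values, but the probe was detected on only 2 of 4 knockout arrays, so that its difference of -0.36 (SE 0.09) is not exact. It was smaller where background was handled otherwise, at -0.14 with no background correction, -0.13 in the authors' deposited log2 values and -0.20 with normexp. Which Mapk9 transcripts each probe can detect was not tested.

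Map2k3 and Map2k6 encode MKK3 and MKK6, the MAP2Ks that activate p38. Map2k3 (ILMN_2659644) was lower in the knockout cells, at 11.01, 11.01, 10.99 and 10.99 on knockout arrays, against 11.27, 11.30, 11.27 and 11.30 on control arrays. Each group was tight and the groups were far apart relative to that spread, with means of 11.001 ± 0.01 in knockout and 11.29 ± 0.02 in control cells (SD, n = 4 each). The difference was small in size, at -0.28 (SE 0.05), with control 1.22-fold above knockout. It was -0.24 with arrays scaled by their 75th percentile instead and lay between -0.29 and -0.28 with 1 array left out. All 3 probes of Map2k6 were detected on no array, with readings from 4.48 to 5.44 in knockout and from 4.50 to 5.34 in control cells.

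Mapkapk2 encodes MK2, a kinase that p38 phosphorylates and that acts on proteins which stabilise or destabilise mRNAs. It read 9.68, 9.58, 9.68 and 9.29 in knockout and 9.25, 9.32, 9.30 and 9.31 in control cells. Knockout arrays 1 to 3 lay above every control array, and knockout array 4 lay among the controls. The difference was 0.26 (SE 0.09) over all arrays and 0.35 without knockout array 4. Dusp1, the phosphatase MKP-1 that switches p38 and JNK off, read 11.21, 11.18, 11.16 and 10.90 in knockout and 11.15, 11.21, 11.16 and 11.27 in control cells. There the groups overlapped (difference -0.09, SE 0.08), and knockout array 4 was again the one that stood apart.

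**Figure D1:**
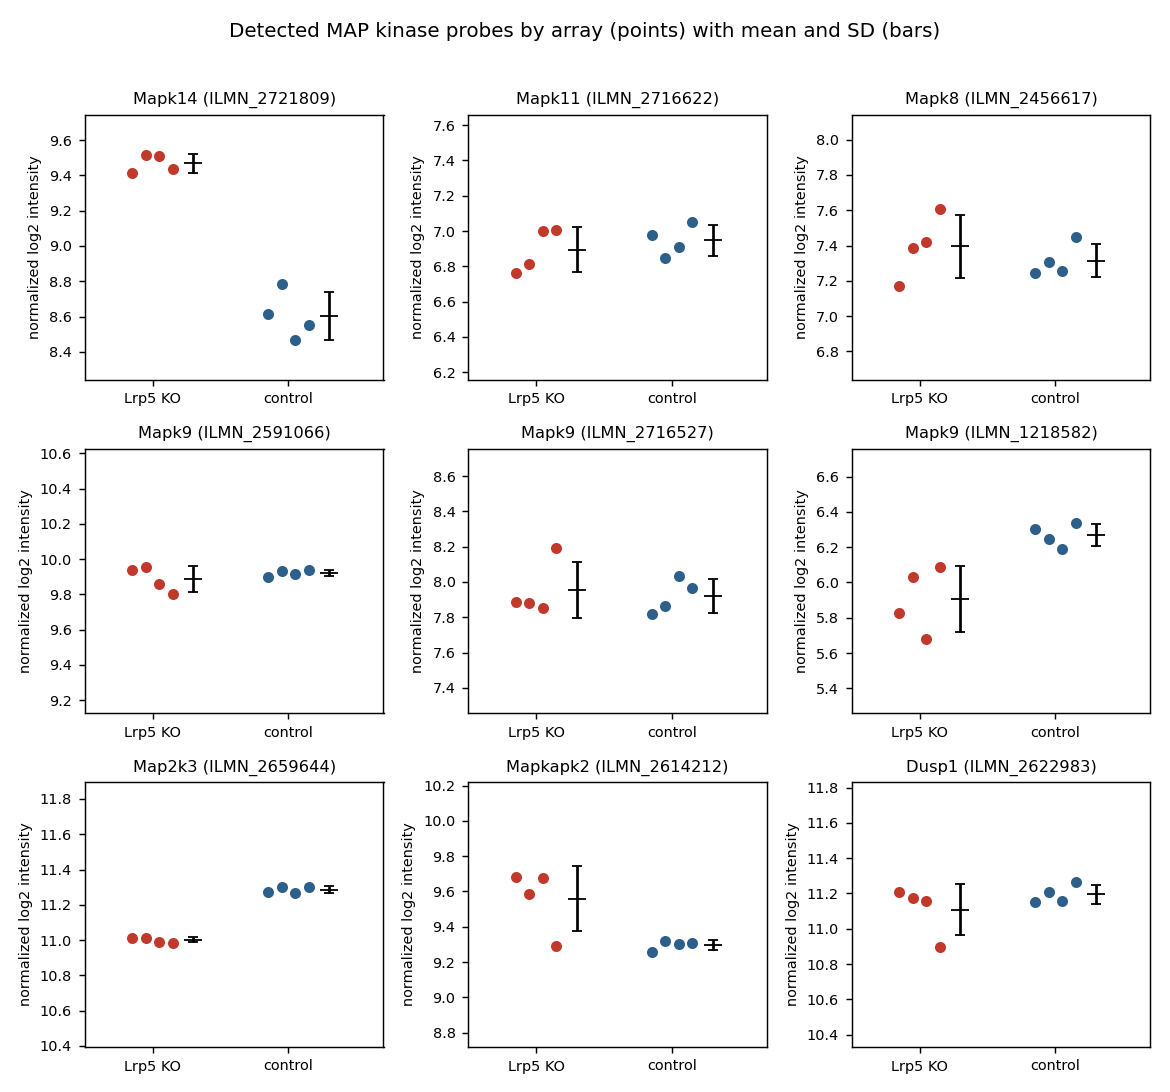
Normalized log2 intensity (vertical axis, the same span in every panel) of the 9 detected member probes on the 4 Lrp5 knockout arrays (red, left) and the 4 control arrays (blue, right), with mean and SD as bars. The groups are apart for Mapk14 (9.47 against 8.60), Map2k3 (11.001 against 11.29) and the dim Mapk9 probe (5.91 against 6.27), and they overlap in the other 6 panels.

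Of the 9 member probes that passed the detection filter, the groups did not overlap for 3, while they did not overlap for 15.8% of all probes tested. By the limma adjusted p, 3 of the 9 were past 0.05, namely the Mapk14 probe upward and the Map2k3 and dim Mapk9 probes downward. Over all 10004 probes 7.13% were past it, 3.12% upward and 4.01% downward. Since the members were chosen on this contrast, nothing is read from these counts. The median absolute difference was 0.09 over the 9 member probes and 0.11 over all probes tested. Among bulk samples such as these, fewer cells of a type and less RNA per cell cannot be told apart.

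Over the 8 arrays Map2k3 ran opposite to Mapk14 (Pearson r = -0.97) and Mapkapk2 ran with it (r = 0.76). With each group's mean taken out these values were 0.42 and 0.13, so both came mainly from the difference between the groups. For Mapk11, Mapk8, the brightest Mapk9 probe and Dusp1, r lay between -0.38 and 0.32 over the 8 arrays. The arrays share their normalization, and the correlations are a description over 8 points in 2 groups.

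The 5 genes whose readings followed Mapk14 most closely over the 8 arrays were Igfbp2 (r = 0.99), Klf4 (0.98), Tlr2 (0.98), Ccdc80 (0.98) and Snrpa1 (0.98). Igfbp2 encodes a binding protein of insulin-like growth factors, Klf4 a zinc finger transcription factor, Tlr2 a receptor for bacterial lipoproteins and Snrpa1 a spliceosome protein. Each was higher in knockout than in control cells without overlap, from 0.33 for Ccdc80 to 0.89 for Klf4. Since Mapk14 itself separates the groups, that direction follows from how the 5 genes were picked. Of 7040 genes compared, 88 had r over 0.9 with Mapk14 and 161 ran opposite to it as closely. With the group means taken out the closest were Dstn (r = 0.98), Cse1l (0.97), Esco2 (0.96), Ubl3 (0.95) and Nop58 (0.94), none of which is in the first set.

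The neighbours of Mapk14 on its chromosome were examined next. In the order of the reference gene table, the nearest genes with a detected probe were Srpk1, Fkbp5 and Def6 before it and Mapk13, Kctd20 and Srsf3 after it, with 1 gene between Srpk1 and Mapk14 and 1 between Mapk14 and Mapk13. Their differences ran from -0.25 (Fkbp5) to 0.09 (Def6), and 0 of 6 passed (limma adjusted p from 0.202 for Kctd20 to 0.553 for Def6). At an unadjusted limma p under 0.05 there was 1 of 6, against 25.1% of all genes. Kctd20 read 8.81, 8.82, 8.80 and 8.83 in knockout and 8.88, 8.93, 8.96 and 8.98 in control cells. It was the only one of the 6 whose groups did not overlap, a count close to the 15.8% of all probes tested.

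The next comparison asked which other genes of the MAP kinase cascades differed between knockout and control cells. Of 159 further genes listed in 10 roles, 133 had a named probe and 92 passed the detection filter, each represented by its probe with the highest mean. The lists were drawn up with earlier results of these data known, so their counts are a description. By limma adjusted p over all 10004 probes, 3 of the 92 were past 0.05 upward and 6 downward, against 7.66% of all 7041 genes, 3.03% upward and 4.63% downward. Of the 6, Mapkapk3 and Dusp14 were detected on no knockout array and had passed the filter only through the controls, so they had to be lower. Among the 90 pathway genes detected in both groups, 3 rose and 4 fell, against 3.02% upward and 4.41% downward of all 7022 such genes, and with detection required on all 8 arrays 5 rose and 4 fell. Over all 92 pathway genes tested, Mapkapk3 and Dusp14 included, the median difference was 0.06. Of these 62 were above 0 and 30 below, against a median of 0.00 and 50.0% above 0 over all genes.

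In the kinase tiers above and beside p38 no gene passed by limma's adjusted p in its brightest probe. At an unadjusted limma p under 0.05 there were 0 of 4 other MAP kinases and 1 of 4 MAP2Ks. Among MAP3Ks and adaptors there were 4 of 14, and among RAS-RAF genes 2 of 5. The share of all genes at that unadjusted threshold was 25.1%. Among the other MAP kinases the smallest p were those of Mapk13 (above) and of Mapk6, which encodes ERK3 (0.15, SE 0.10, limma adjusted p = 0.414). Among 4 MAP2Ks, Map2k1 (MEK1) differed by 0.19 (SE 0.08, adjusted p = 0.172) and Map2k2 (MEK2) by 0.07 (SE 0.07, adjusted p = 0.568) in limma. Among 14 MAP3Ks, MAP4Ks and adaptors, Map3k1 (MEKK1) read 6.88, 6.76, 6.63 and 6.89 in knockout and 7.00, 6.97, 7.12 and 7.06 in control cells. Its groups did not overlap, but its difference of -0.25 did not pass (SE 0.07, limma adjusted p = 0.0706). Map4k4 differed by 0.19 (SE 0.07, limma adjusted p = 0.14). Map3k20 did not pass in its brightest probe (0.21, limma adjusted p = 0.32). A dimmer Map3k20 probe, detected on 4 knockout arrays and 1 control array, passed upward (0.40, limma adjusted p = 0.0461). The mean of the gene's detected probes also passed.

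Of 5 RAS-RAF genes upstream of ERK, Araf and Ptpn11 had the smallest p, and their probes disagreed. Araf, a RAF kinase, differed by 0.29 (SE 0.08, limma adjusted p = 0.0526) in its brightest probe and by -0.05 in another. Ptpn11, the phosphatase SHP-2, differed by -0.17 (SE 0.06, limma adjusted p = 0.113) in its brightest probe and by 0.23 and 0.25 in the 2 others. Neither gene has a settled direction here. Araf passed under 8 of 20 alternative settings, including 1 probe per gene (adjusted p = 0.0439) and the authors' deposited log2 values (0.00889).

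Among 4 kinases downstream of p38 and ERK, 1 that was detected in both groups fell and 0 rose, and 1 more was detected only in control cells. Mknk2 (MNK2), which phosphorylates the translation factor eIF4E, read 7.96, 7.76, 7.90 and 8.07 in knockout and 8.13, 8.37, 8.26 and 8.29 in control cells. It fell by 0.34 (SE 0.08, limma adjusted p = 0.0358), and the call was lost without knockout array 1, 2 or 3 or control array 2, 3 or 4 (adjusted p up to 0.0963). Mapkapk3 (MK3), the closest relative of MK2, was detected on 0 knockout and 4 control arrays, so that it has only a bound. It was at least 1.08-fold lower in knockout cells, the bound setting the control mean of 5.88 against a floor of 5.77, the lowest signal among detected probes per knockout array. Its limma adjusted p of 0.0178 is given for completeness and supports nothing, since the filter had chosen the gene for its control level.

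Among scaffolds and activators 1 of 8 fell and 0 rose, with a median of 0.08. Mapk8ip1, which encodes the scaffold JIP1 that holds JNK together with its activating kinases, read 6.15, 6.09, 6.36 and 6.32 in knockout and 6.72, 6.92, 7.01 and 6.85 in control cells. All knockout arrays were below all control arrays, and the fall was 0.64 (SE 0.09, limma adjusted p = 0.00254), with an adjusted p of at most 0.0124 under all 20 alternatives. The size of that fall depended on the background correction, and the difference was -0.30 with none, -0.29 in the authors' deposited log2 values and -0.41 with normexp. Of 10 phosphatases, each by its brightest probe, 0 rose, and the 1 past the threshold downward was detected only in control cells. Dusp14 (MKP-6) was detected on 0 knockout and 4 control arrays, and was at least 1.12-fold lower in knockout cells. The limma adjusted p of 0.0349 likewise supports nothing, and it was 0.0683 without knockout array 1 and 0.0629 without knockout array 2. Mapkapk3 and Dusp14 no longer passed the detection filter when any 1 control array was left out. The probes of Dusp3 disagreed, at -0.20 in the brightest and at -0.11 and 0.25 in the others, the last past the threshold (limma adjusted p = 0.0442). Ppm1d fell by 0.24 in another detected probe (limma adjusted p = 0.0354), while its brightest probe did not pass (-0.18, limma adjusted p = 0.119). None of 14 p38 substrates and partners passed (3 at an unadjusted p under 0.05, against 25.1% of all genes). The smallest p were those of the small heat shock protein Hspb1 (-0.33, SE 0.11, limma adjusted p = 0.104) and of the repressor Hbp1 (0.15, SE 0.06, limma adjusted p = 0.142). Hspb1 passed downward under 4 of 20 alternative settings. These included no background correction (limma adjusted p = 0.0224) and the authors' deposited log2 values (0.0222).

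Inducible transcripts whose AU-rich elements are known targets of the p38-MK2 branch formed the next list. Of 17 tested, 3 rose and 1 fell, and 13 did not pass, each by its brightest probe. The median difference was 0.22, with 13 of 17 above 0, against 0.00 and 50.0% above 0 over all genes. Mmp13 and Lif did not pass in their brightest probes (0.17 and 0.34, limma adjusted p = 0.133 and 0.124). Another detected probe of each passed upward (0.31 and 0.39, limma adjusted p = 0.0225 and 0.0468). Ptgs2, the inducible cyclooxygenase, read 9.19, 9.52, 8.97 and 9.09 in knockout and 8.74, 8.81, 8.63 and 8.77 in control cells. It rose by 0.46 (SE 0.11, limma adjusted p = 0.0354), a call lost without knockout array 1 or control array 1, 2 or 3 (adjusted p up to 0.0915). Vegfa rose by 0.33 (SE 0.07, limma adjusted p = 0.0285) and the early response gene Ier3 by 0.24 (SE 0.06, limma adjusted p = 0.0486). Vegfa lost its call without any of 5 arrays (knockout 1 or 2, control 1, 2 or 3; adjusted p up to 0.0799), and Ier3 without any array except control array 4 (up to 0.126).

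Plau, the urokinase plasminogen activator, went the other way, at 7.68, 7.68, 7.60 and 7.23 in knockout and 7.997, 8.01, 7.98 and 7.91 in control cells. It fell by 0.42 (SE 0.10, limma adjusted p = 0.0314), a call lost without knockout array 3 or control array 1, 2 or 3 (adjusted p up to 0.0791). The Plau difference was -0.28 with no background correction. Over the whole list, 12 of 17 had an unadjusted p under 0.05, against 25.1% of all genes. The list was drawn up with earlier results of these data known, so nothing is read from its counts or its median. Macrophages also express several of these genes. All 5 macrophage markers tested were below 0, but 0 passed and the groups overlapped for each. Of the 5, 4 had an unadjusted limma p under 0.05. The summed normalized signal of all 5, in which Lyz1 was the brightest, was 7251 to 8620 in knockout and 8625 to 9260 in control cells. Of the markers of other cells, Col2a1 rose and Acta1 fell, as given under the other observations. The part of such cells in the result was not tested. The list's count of rises was 0 without knockout array 1 or control array 1, 2 or 3.

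ERK and JNK output genes showed 1 fall and 0 rises among 12 tested, with a median of 0.05. Ccnd1, which encodes cyclin D1, read 12.15, 12.33, 12.21 and 12.19 in knockout and 12.80, 12.68, 12.72 and 12.64 in control cells. It fell by 0.49 (SE 0.07, limma adjusted p = 0.00258), and its 2 other detected probes fell by 0.53 and 0.48. Whether MAP kinase activity had a part in this fall was not tested.

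**Figure D2:**
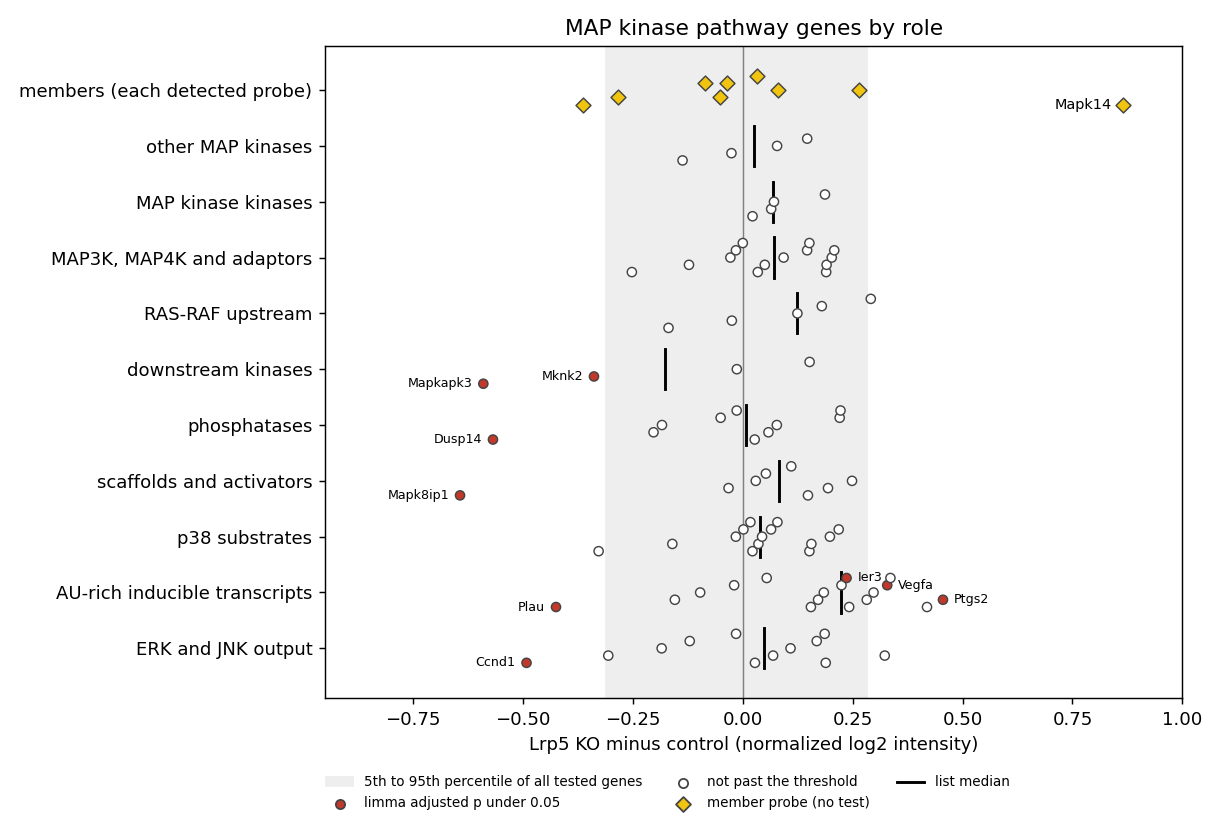
Difference between Lrp5 knockout and control cells (horizontal axis, knockout minus control, normalized log2 intensity) for each detected member probe (yellow diamonds) and for each pathway gene by role (circles, red where limma adjusted p is under 0.05), with list medians as black bars and the 5th to 95th percentile of all genes in grey (-0.31 to 0.28). Mapk14 at 0.86 lies right of every pathway gene, and Mapk8ip1 lies at -0.64 with this background correction (-0.30 with none).

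**Figure D3:**
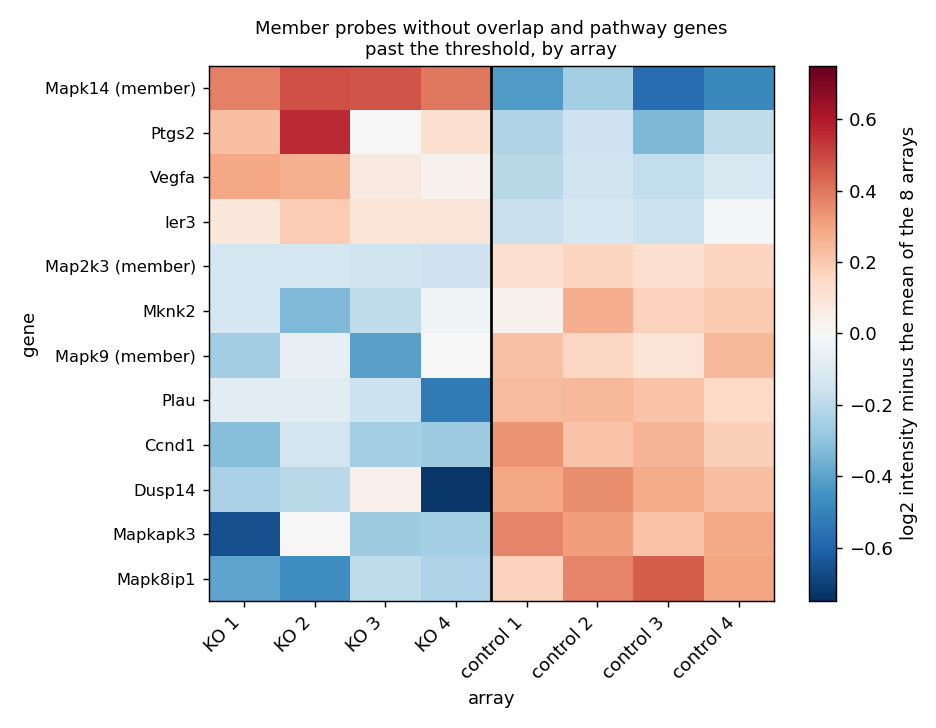
Log2 intensity minus the mean of the 8 arrays (colour) for the 3 member probes without overlap and the 9 pathway genes past the threshold, Mapkapk3 and Dusp14 included (rows, by difference) on the 4 knockout and 4 control arrays (columns). Mapk14 lies between 0.38 and 0.48 on the knockout arrays and between -0.57 and -0.25 on the control arrays, while Map2k3 stays within 0.16 of its mean on every array.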

How the data were processed

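Per the labels' protocols, total RNA was purified on RNeasy columns, amplified to biotin-labelled cRNA and hybridised to Illumina arrays, and GenomeStudio is the tool the submitters' processing notes name. Per the file headers, the authors deposited a linear intensity and a detection p-value for each of 25697 probes on each array. The medians of the intensities differed (126 to 155), with 91.6 as the lowest value, and they were treated as not normalized. The deposited detection p-value rose with the intensity (Spearman correlation of at least 0.979), so 1 minus it was used. The authors' deposited log2 values had a median of 6.89 on all arrays, were taken as quantile-normalized and served as an alternative. Their making is not given in the sources used.

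Background correction and quantile normalization used neqc of limma 3.58.1 in R 4.3.3 (offset 16). The filter kept 10004 probes detected (p under 0.01) on 4 or more of the 8 arrays, and knockout and control were compared probe by probe with lmFit and eBayes, with Benjamini-Hochberg adjustment over all of them and a threshold of 0.05. The platform annotation named 23978 probes with 1 symbol and 0 with several, and left 1719 unnamed; through gene IDs, 23962 probes matched the reference table of GRCm38.p6, which changed 0 symbols. A pathway gene is represented by its detected probe of highest mean. The genes named are the members, up to 4 genes of each list past the threshold or otherwise the 2 of smallest p, Lrp5, the 3 nearest detected genes on each side of Mapk14 and the 5 most correlated with it by either measure. Mapk12, and list genes of which only another detected probe passed, are named as well. The members and lists were chosen with earlier results of these data known. A gene detected on no array of 1 group is given as a lower bound. The steps were tested on simulated data. No pair of the 28 had identical arrays (0). Same-numbered arrays did not deviate together (r from -0.03 to 0.08), so the numbers were not treated as pairs.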

Additional observations from a re-analysis of the deposited data

Results flagged for a closer look

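Of 96 groups of 4 arrays examined, 4 held an array whose gap to its nearest neighbour was beyond Dixon's critical share of the group's range, where chance gives about 1 in 20. For Mapk9 (ILMN_2716527), knockout array 4 read 8.19, against 7.85 to 7.89 on the other knockout arrays. For Dusp1, knockout array 4 read 10.9, against 11.16 to 11.21. For Ccdc80, one of the genes that followed Mapk14, knockout array 4 read 10.92, against 11.03 to 11.05. For Mapk6, control array 4 read 9.85, against 9.42 to 9.49 on the other control arrays.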

How the results depend on the processing

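The Mapk14 difference of 0.86 stayed above 0 under all 20 alternatives and moved by more than the spread between arrays under 2, to 0.71 with no background correction and 0.69 in the authors' deposited log2 values, and it lay between 0.82 and 0.93 with 1 array left out. The number of probes past the threshold, 713, was 1196 with no background correction, 1181 in the authors' values, 1213 with a trended and robust prior, 421 with no detection filter, 444 with the looser filter, and 304 to 793 with 1 array left out (429, 366 and 410 without knockout array 1, 2 and 3, and 391, 304 and 341 without control array 1, 2 and 3). With the replicate number as a block, 380 probes passed, and of the pathway genes 1 was past it upward (Ptgs2) and 5 downward. Pathway genes past the threshold upward, 3 here, numbered 10 with no background correction, in the authors' values and with the trended prior, 7 with normexp and with the mean of a gene's probes, 8 with 75th percentile scaling, 6 under array weights, 5 where all 8 arrays had to detect a probe and with 1 probe per gene, 0 without the detection filter and with a looser one, and 0 to 7 with 1 array left out. Those past the threshold downward, 6 here with Mapkapk3 and Dusp14, numbered 8 with no background correction and in the authors' values. They numbered 7 with normexp and with the mean of a gene's probes. With no detection filter or a looser one they numbered 6, but Dusp2, Dusp4 and Etv4 stood in place of Dusp14, Mknk2 and Plau. With 1 array left out they numbered 2 to 6, being 3 without control array 1 or 4 and 2 without control array 2 or 3. The block lost the calls of Mknk2, Vegfa and Ier3, and Ptpn11 turned to 0.11 with the mean of its probes. No detection filter also lost those of Dusp14, Plau and Ptgs2. The cause of these changes was not tested. Signal over background limits Map2k6, the dim Mapk9 probe, Mapkapk3 and Dusp14, whose readings lie at or near background in 1 or both groups.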

Other observations

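Among lists of markers for cell types that such cultures could hold, 0 of the adipocyte, endothelial and lymphocyte genes with a named probe passed the detection filter. Of 3 chondrocyte markers tested 1 rose, the cartilage collagen Col2a1, which read 10.77, 10.71, 10.70 and 10.75 in knockout and 10.34, 10.30, 10.42 and 10.08 in control cells. The only muscle marker tested, the skeletal actin Acta1, fell by 0.73 (SE 0.15), and read 7.45, 7.25, 7.21 and 6.75 in knockout and 8.15, 7.96, 7.83 and 7.65 in control cells. Myod1, Myog, Des and Ckm, further muscle genes, were detected on no array of either group. Of 2 osteoclast markers tested 0 passed, and Acp5 was detected on no array of either group. All 6 osteoblast markers tested were above 0 and 0 passed, with a median difference of 0.16. The largest differences among them were those of Ibsp (0.58, detected on 4 knockout and 1 control arrays) and Col1a2 (0.34).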
